A study of Mus musculus with 18 samples.

Results

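RNA levels at day 6 were compared with those at day 2 in TKO cell aggregates grown without cytokines, over all genes. The members are 4 of the 18 libraries of the series, 2 biological replicates at each day, and were taken by the genotype, treatment and day in their labels. All cells derive from E14Tg2a, a line of mouse embryonic stem cells (ESCs). In the TKO line CRISPR/Cas9 removed the stretch between the start and stop codons of Tet1, Tet2 and Tet3, and the study's differentiation assays used a single clone per genotype, which the labels do not name. ESCs held in 2i/LIF were turned into epiblast-like cells (EpiLCs) with Activin A and FGF and then aggregated in suspension in GK15 medium. The aggregates described here received no BMP4, BMP8a, SCF, LIF or EGF. They were collected whole, without sorting, so fewer cells of a type and less RNA per cell cannot be told apart. TKO aggregates with these cytokines and wild-type aggregates without them, at the same days and with 2 libraries in each group, serve for comparison.

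TET proteins oxidise 5-methylcytosine and so start the removal of methylation from DNA. Primordial germ cells (PGCs) arise from the epiblast under BMP signals, and BMP4 with the other cytokines drives EpiLCs into PGC-like cells (PGCLCs) in culture. Many germline genes carry methylated promoters in somatic cells and become active as germ cells lose methylation. A further set of genes is active at the two-cell stage of the mouse embryo and, in ESC cultures, in a rare and transient two-cell-like state. It includes the Zscan4 zinc finger genes, the Usp17l deubiquitinases and Dux, a homeobox activator of the others.

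The 4 libraries held between 11286050 and 12872533 counts, of which the ribosomal precursor Rn45s took 16.2% to 20.9%. The replicates of both days differed less, relative to counting noise, than those of any other group. Their chi-square per degree of freedom was 12.8 at day 2 and 11.2 at day 6, against up to 169.9 for wild-type aggregates at day 6. Replicates thus differed by more than sampling noise, and no pair was counted as 1 sample. The chi-square also grows with the counts of a library, which reached 41257861 elsewhere in the series. Its order is thus not that of replicate spread alone. Nothing in the labels states how separate the cultures of a group were, so p-values measure only the spread between libraries. The model estimated that spread jointly over the 9 groups of all 18 libraries, and not from these 4 alone.

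Counts of the targeted genes were read first. A normalised count is a count divided by the size factor of its library. Tet3 stood at 165 and 238 normalised counts in the TKO libraries of day 2 and at 252 and 237 at day 6, below all 4 wild-type libraries without cytokines, which lay between 1965 and 5849. Tet2 stood at 355 and 405 and then at 274 and 304, where wild-type libraries held 200.4 to 287 at day 2 and 574 to 1428 at day 6. Tet1 stood at 1937 and 1200.3 and then at 998 and 737, which overlaps the wild-type range of 595 to 2028. The values are sums over all annotated exons, including those outside the deleted stretch, so they do not show whether the deleted stretch is absent. None of these genes passed the test between the days (edgeR quasi-likelihood test, adjusted p = 0.392, 0.894 and 0.885 for Tet1, Tet2 and Tet3).

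In the model of all 18 libraries, 79 genes changed between the days. Of 16582 genes tested with edgeR's quasi-likelihood test, 70 rose (0.422%) and 9 fell (0.0543%) at an adjusted p below 0.05. With the added limit of 2 on the log2 fold change, the one the study used, 50 rose (0.302%) and 6 fell (0.0362%). At an unadjusted p below 0.05 there were 1456 genes, 952 higher and 504 lower, and the median log2 fold change over all genes tested was 0.021. In each of the 79 genes that passed, both libraries of one day lay above both of the other. The calls depend on having 2 libraries at day 2: of the 56 genes beyond both limits, 2 were called without replicate 1 of day 2 and 1 without replicate 2. Without replicate 1 of day 6, 28 genes were called, all among the 56, and without replicate 2 there were 27 calls, of which 23 were among them. The count rose under other settings, to 97 with DESeq2, 116 with no filter on low counts and 208 in a fit of the 4 libraries alone, each of which held all 56. Of the 49 genes that passed and were followed through these settings, none turned its direction when a library was left out.

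**Figure D1:**
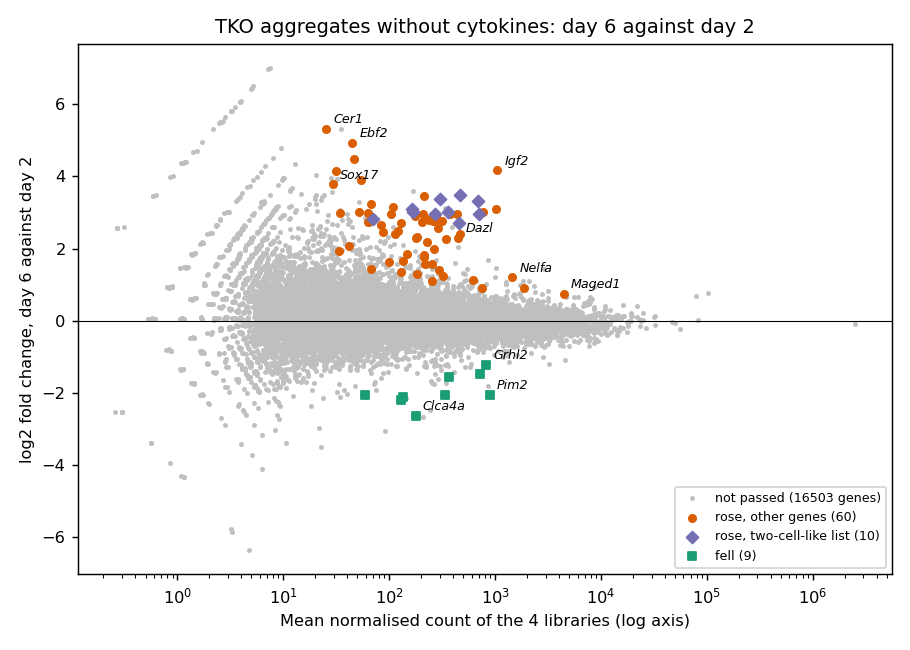
log2 fold change of day 6 against day 2 (vertical axis) by the mean normalised count of the 4 TKO libraries without cytokines (horizontal log axis), 1 point per gene tested. The 10 two-cell-like genes that rose (diamonds) lie close together between 2.71 and 3.48, the other 60 that rose are circles, and the 9 that fell are squares.

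One group among the genes that rose belongs to the two-cell-like state. Of 20 listed genes, 17 could be tested, and 10 rose: Zscan4a, Zscan4b, Zscan4c, Zscan4d and Zscan4f, and Usp17la, Usp17lb, Usp17lc, Usp17ld and Usp17le. None fell and the other 7 did not pass, where 0.422% of all genes tested rose, and the median log2 fold change of the 17 was 2.96, against 0.021 over all genes tested. This list, like the others, was chosen with earlier results of these data known, so its count is a description. Summed over the list, normalised counts were 789.8 and 888 at day 2 and 6149.6 and 7652 at day 6. Without replicate 1 or replicate 2 of day 2, 1 member passed, and without replicate 1 or 2 of day 6, 10 and 8 did.

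Zscan4d held 120.4 and 129 normalised counts at day 2 and 1078 and 1405 at day 6, a log2 fold change of 3.32 ± 0.36 (SE, edgeR adjusted p = 0.00149). Zscan4c held 77.8 and 75.7 at day 2 and 819 and 885 at day 6, a log2 fold change of 3.48 ± 0.50 (edgeR adjusted p = 0.00499). Usp17le, a deubiquitinase, held 107.9 and 132 and then 683 and 887, the smallest p-value of the comparison (log2 fold change 2.71 ± 0.24, edgeR adjusted p = 0.000303). The other 7 that rose ran from Usp17ld, with 14.5 and 20.4 normalised counts at day 2 and 104 and 140.1 at day 6, to Zscan4a, with 143 and 178 and then 1110.2 and 1355. Both libraries of day 6 stood far above both of day 2 for each of these genes, and the replicates of a day lay within a narrow range. Of the 49 genes followed with each library left out in turn, Usp17le alone passed every time.

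Of the members that did not pass, Dux held 7.26 and 3.60 normalised counts at day 2 and 24.8 and 37.9 at day 6 (log2 fold change 2.48, edgeR adjusted p = 0.155). Zfp352, a zinc finger gene of the same stage, held 8.30 and 20.4 and then 93.7 and 112.3 (log2 fold change 2.86, edgeR adjusted p = 0.119). Tcstv1 was at 0 in both day 2 libraries and at 2.15 and 13.9 at day 6. All 7 of these members had higher values in both libraries of day 6 than in both of day 2. Their mean normalised counts at day 6 reached at most 103, below the 122 of Usp17ld, the lowest of the 10 that rose. Under the DESeq2 Wald test 12 members passed.

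**Figure D2:**
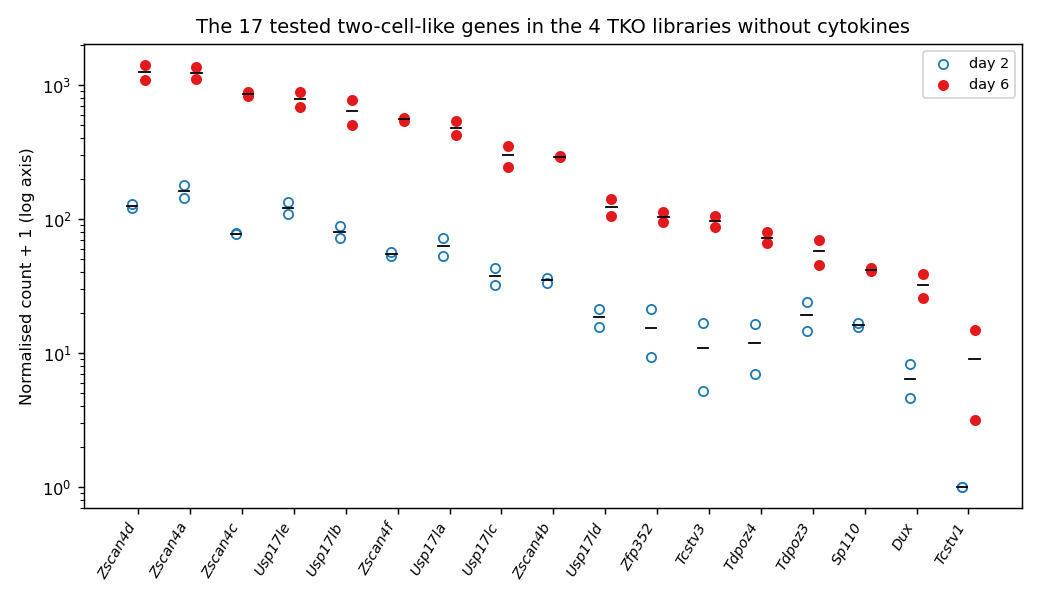
Normalised counts + 1 (log axis) of the 17 tested two-cell-like genes in each TKO library without cytokines, with open circles for day 2, filled circles for day 6 and a bar for the mean of 2 libraries. The days do not overlap for any of the 17 genes, of which 10 passed the test.

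The Zscan4 genes that rose lie between 10794241 and 11402318 on chromosome 7, and the Usp17l genes between 103250086 and 104862667 on the same chromosome (RefSeq, GRCm38.p6). Near copies within each family share much of their sequence. Of the 75-base windows of Zscan4f transcripts, 83.4% also occur in transcripts of another gene, and the share is 39.5% for Zscan4d and 15.3% for Usp17le (GENCODE vM21). Fragments with several best places were not counted, so the level of a single family member is uncertain. The rise was seen in every member listed above, but near copies of a family are not separate observations.

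The start sites of these genes can be set beside those of germline genes that rose. The windows run from 250 bases before the annotated start to 50 after it (RefSeq, GRCm38.p6), with CG dinucleotides, the bases that carry methylation, in capitals. Zscan4c (chr7:11005495-11005794, plus strand) and Zscan4d (chr7:11166099-11166398, minus strand) are shown because they rose together and are near copies. Dazl (chr17:50293571-50293870, minus strand) and Spesp1 (chr9:62282130-62282429, minus strand) are shown as germline genes that rose.
Zscan4c: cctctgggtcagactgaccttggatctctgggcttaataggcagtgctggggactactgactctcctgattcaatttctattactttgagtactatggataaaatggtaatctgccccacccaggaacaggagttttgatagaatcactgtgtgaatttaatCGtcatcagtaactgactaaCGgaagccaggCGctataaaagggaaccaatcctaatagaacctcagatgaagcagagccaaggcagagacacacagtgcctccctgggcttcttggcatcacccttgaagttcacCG
Zscan4d: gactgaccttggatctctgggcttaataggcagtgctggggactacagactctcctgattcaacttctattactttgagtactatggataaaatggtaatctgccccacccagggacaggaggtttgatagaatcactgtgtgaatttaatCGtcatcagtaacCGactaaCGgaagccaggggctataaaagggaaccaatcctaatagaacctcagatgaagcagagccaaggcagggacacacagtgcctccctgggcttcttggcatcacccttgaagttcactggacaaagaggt
Dazl: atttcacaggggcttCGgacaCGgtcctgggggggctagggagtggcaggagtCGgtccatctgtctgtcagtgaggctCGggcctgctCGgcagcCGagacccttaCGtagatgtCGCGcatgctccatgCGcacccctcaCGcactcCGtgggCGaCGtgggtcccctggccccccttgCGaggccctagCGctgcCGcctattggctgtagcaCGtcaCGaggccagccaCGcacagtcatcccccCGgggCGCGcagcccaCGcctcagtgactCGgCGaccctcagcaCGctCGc
Spesp1: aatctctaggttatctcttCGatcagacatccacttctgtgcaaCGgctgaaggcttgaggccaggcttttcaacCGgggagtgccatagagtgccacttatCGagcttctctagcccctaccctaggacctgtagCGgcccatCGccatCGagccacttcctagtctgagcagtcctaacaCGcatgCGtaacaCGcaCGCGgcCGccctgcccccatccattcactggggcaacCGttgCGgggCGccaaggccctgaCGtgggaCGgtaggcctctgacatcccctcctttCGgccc

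The windows of Zscan4c and Zscan4d hold 4 and 3 CG dinucleotides, and 97.2% of their bases are the same over the 289 that align without gaps. The windows of Dazl and Spesp1 hold 28 and 19. Those of Sohlh2 and Rhox5, germline genes that also rose, hold 17 and 5. RefSeq windows were at hand for 47 of the 70 genes that rose, and 22 of these (46.8%) held at most 5 CG, against 13% of the 12877 windows of all genes tested. All 8 windows of two-cell-like genes that rose were among the 22, and of the other 39 windows 14 (35.9%) held at most 5. The motif TATAAA, searched on both strands after the windows had been seen, was in 15 of the 47 windows (31.9%) against 7.61% of all windows, and 7 of the 15 are in the two-cell-like genes. CACGTG, the E-box bound by basic helix-loop-helix factors, was in 2 of the 47 (4.26%) against 9.85%. TCCCGC, the core of E2F sites, was in 5 (10.6%) against 34.3%, on either strand. The windows of 2 overlapping germline lists, taken whether or not the gene rose, held CACGTG more often. It was in 4 of 7 late germline genes (57.1%) and in 11 of 25 methylation-silenced ones (44%). TCCCGC was in 2 (28.6%) and 13 (52%) of the same windows. Neither of the last 2 motifs is in the 4 windows shown. These are descriptions of sequence near annotated starts. No methylation was measured here.

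Other genes that rose have names in common or lie on the same chromosome. They were grouped after they had passed, members that did not rise were not counted, and no share of a family can be read from them. On chromosome 12, 8 predicted genes with Gm names rose with log2 fold changes between 2.75 and 2.98, and on chromosome 13 another 3 rose by 2.72 to 3.10. Among them Gm5662 held 101.7 and 96.1 normalised counts at day 2 and 703 and 827 at day 6 (edgeR adjusted p = 0.000647). Gm5039 held 79.9 and 90.1 and then 587 and 737 (edgeR adjusted p = 0.00184). Gm21761 held 177 and 249.9 and then 1475 and 2159 (edgeR adjusted p = 0.00149). Eif4a3l1, a gene related to the RNA helicase Eif4a3, rose from 145 and 196 to 1072 and 1649.5 (edgeR adjusted p = 0.0024). The PRAME-like genes Pramel6, Pramel7, Gm12794, Gm13119 and B020004J07Rik also rose, by log2 fold changes of 2.32 to 3.90; all of these but B020004J07Rik were picked after their values were seen. Nelfa, a subunit of the negative elongation factor of RNA polymerase II, rose from 901 and 839.8 to 1929.6 and 2092, a small change of 1.21 ± 0.13 on the log2 scale with little spread (edgeR adjusted p = 0.000647). Gm6803, with 2.98, is one of the 8 on chromosome 12. Other large rises were those of BC147527, Gm4971, Gm36718 and Trim75, with log2 fold changes from 3.02 to 4.47.

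Of the 77 genes that passed and have GENCODE transcripts, 32 share over 5% of their 75-base windows with another gene, and 37 share none. The share is 82.8% in Gm2022 and 67.0% in Gm5662, so single members of these families are uncertain in the same way as the Zscan4 genes. Among genes described singly below, it is 60.3% in Igf2 and 24.9% in Clca4a, and their levels are uncertain too.

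Germline genes that the study names, most of them of later stages, moved in part. Of these 9, Dazl, Spesp1 and Dppa3 rose and none fell, where 0.422% of all genes tested rose, and the median log2 fold change was 0.80. Apart from Ddx4, the study named these genes from these samples, so the count is not independent evidence of a direction. Without a day 2 library none of the 3 passed, and without either day 6 library 1 did. Dazl, an RNA-binding protein of germ cells, held 157 and 147 normalised counts at day 2 and 844 and 649.96 at day 6 (log2 fold change 2.31 ± 0.47, edgeR adjusted p = 0.0409). Spesp1, a protein of the sperm head, held 15.6 and 28.8 and then 177 and 212 (3.14 ± 0.46, edgeR adjusted p = 0.00452). Dppa3, which shields methylation in the zygote and marks early PGCs, held 104.8 and 58.9 and then 422 and 317 (2.17 ± 0.40, edgeR adjusted p = 0.0259). The days did not overlap for any of these genes. Stra8, the gene at the entry to meiosis, held 155 and 54.1 and then 363 and 471 and narrowly missed the limit (log2 fold change 1.99, edgeR adjusted p = 0.0575, and 0.00179 under DESeq2). Ddx4, the germ cell RNA helicase, held 437 and 484 and then 410.3 and 413.

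Of 28 tested germline genes known to be silenced by promoter methylation in somatic cells, Dazl and Rhox5 rose and none fell, against the 0.422% of all genes tested that rose. Of the 28, 23 had a positive log2 fold change, 10 had an unadjusted p below 0.05, all of them higher at day 6, and the median was 0.56. Of all genes tested, 52.5% were positive, and 952 of 16582 were higher at an unadjusted p below 0.05. Rhox5, an X-linked homeobox gene, held 77.8 and 141 normalised counts at day 2 and 302 and 342 at day 6 (log2 fold change 1.57 ± 0.30, edgeR adjusted p = 0.0282). It was the one called gene of the 5 tested members of the Rhox cluster, whose median was 1.63. Sohlh2, a basic helix-loop-helix factor of germ cells that is in no list, rose from 101.7 and 136 to 543 and 603 (2.28 ± 0.29, edgeR adjusted p = 0.00184). In the meiosis list 0 of 29 genes passed (edgeR), where 2 had an unadjusted p below 0.05, and in the piRNA list 0 of 18, where 3 did. The medians of these lists were 0.10 and 0.27. Sycp3, of the synaptonemal complex, stood at 528 and 532 and then at 379 and 352.

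Of 16 tested genes of PGC specification and early PGCs, Dppa3 alone rose, where 0.422% of all genes tested did, and the median log2 fold change was -0.21. Tfap2c held 1789 and 1544 normalised counts at day 2 and 1653 and 1774 at day 6. Prdm1 held 611 and 381 and then 422 and 483. Prdm14 held 788 and 740.1 and then 504 and 602. These transcription factors form the core of PGC specification, and none of them passed the test. Nanos3, an RNA-binding factor needed for PGC survival, held 55.0 and 45.7 and then 31.2 and 22.7 (log2 fold change -0.89, edgeR adjusted p = 0.566).

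No pluripotency gene passed the test in either direction, where 0.422% of all genes tested rose and 0.0543% fell. At these shares no call would be likely in lists of this size. At an unadjusted p below 0.05, 952 of all 16582 genes were higher and 504 lower. Among 17 naive genes 0 passed (edgeR, 3 at an unadjusted p below 0.05, median 0.14), and among 14 formative and primed genes 0 passed (3 at an unadjusted p below 0.05, all of them lower at day 6, median -0.39). Nanog held 6585 and 5398 normalised counts at day 2 and 7386 and 6303 at day 6. Pou5f1 held 9806 and 10803 and then 7197 and 9948. Esrrb, of the naive state, held 4627 and 3886 and then 4014 and 4397. Otx2 and Fgf5 belong to the formative epiblast, the one an activator of enhancers and the other a growth factor. Otx2 held 1163 and 986 and then 1026 and 972. Fgf5 held 601 and 577 and then 323 and 317 (log2 fold change -0.87, edgeR adjusted p = 0.665). The 3 formative genes with an unadjusted p below 0.05 were Wnt8a, Pou3f1 and Dnmt3b. Wnt8a, a WNT ligand, held 142 and 186 and then 29.1 and 8.83 (log2 fold change -3.06 ± 0.77, edgeR adjusted p = 0.120). Pou3f1, a POU factor, held 340.4 and 576 and then 226 and 245 (-0.95 ± 0.29, edgeR adjusted p = 0.230). Wnt8a and Pou3f1 were named after their values were seen. Dnmt3b, a de novo DNA methyltransferase, held 3916 and 5097 and then 1611 and 2269 (-1.21 ± 0.27, edgeR adjusted p = 0.0704, and 0.00158 under DESeq2).

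Markers of other cell types were read next, with 0.422% of all genes tested rising. Of 11 tested endoderm genes, Sox17, Foxa1 and Cer1 rose and none fell, and the median log2 fold change was 1.61. The list summed to 371 and 363 normalised counts at day 2 and to 984 and 766 at day 6. Sox17, which endoderm and human germ cells use, held 4 and 3 counts at day 2 and 73 and 24 at day 6, a ratio of normalised counts of 14.5 (95% exact interval for counting error only, 6.76 to 36.9; edgeR adjusted p = 0.0108). Foxa1, a pioneer factor, held 38.4 and 33.6 normalised counts and then 218 and 167 (log2 fold change 2.42 ± 0.46, edgeR adjusted p = 0.0295). Cer1, a secreted inhibitor of Nodal and BMP, held 0 and 2 counts and then 44 and 41, a ratio of 44.3 with an interval of 11.9 to 372 (edgeR adjusted p = 0.0445). Foxa2 and Gata6, the other defining factors, held 14.5 and 15.6 and then 42.0 and 26.5, and 27.0 and 21.6 and then 75.4 and 73.2. Neither passed. Without replicate 2 of day 6 1 endoderm gene passed, and without any other of the 4 libraries none did.

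At that share no call would be likely in lists of this size, so counts of 0 set no list apart. Of the remaining lineages, 0 of 20 neural genes passed (edgeR, 3 at an unadjusted p below 0.05, median 0.30) and 0 of 15 mesoderm genes (3 at an unadjusted p below 0.05, median 0.55). The trophoblast, blood and endothelium, muscle and gonadal lists also had none, of 11, 8, 8 and 9 genes, with 1, 0, 0 and 0 at an unadjusted p below 0.05. Summed neural counts were 3785 and 4798 at day 2 and 4719 and 5646 at day 6, against 68523 and 81516 in wild-type aggregates at day 6. Sox1, a neural plate factor, held 37.4 and 39.6 normalised counts and then 102.3 and 89.6, and Pax6 held 64.3 and 43.3 and then 88.3 and 111.1. T, the mesoderm factor Brachyury, held 76.8 and 148 and then 38.8 and 29.0 (log2 fold change -1.71, edgeR adjusted p = 0.644). Cdx2, of trophoblast, and Gata1, of blood, stayed at or below 31.2 normalised counts in all 4 libraries. The part of other cell types in the changes above was not tested.

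A few other developmental genes rose. Igf2, a growth factor expressed from the paternal copy, went from 106.9 and 112.9 normalised counts at day 2 to 2812 and 1151 at day 6 (log2 fold change 4.18 ± 0.81, edgeR adjusted p = 0.0328). The replicates of day 6 differed by more than 2-fold, and both stood far above the day 2 level. It was 1 of 30 imprinted genes to pass, where 0.422% of all genes tested rose, with a median of 0.47 over the list. H19, its maternally expressed neighbour, held 21.8 and 30.0 and then 347 and 274 (3.59, edgeR adjusted p = 0.155). Ebf2, a transcription factor of neurons and fat, held 3 and 2 counts at day 2 and 130 and 27 at day 6, a ratio of normalised counts of 32.8 (95% exact interval for counting error only, 13.7 to 102.3; edgeR adjusted p = 0.0185). Hoxa10, a posterior homeobox gene, held 5 and 1 and then 81 and 26 counts, a ratio of 18.6 with an interval of 8.27 to 51.8 (edgeR adjusted p = 0.0409). For Sox17, Ebf2, Hoxa10 and Igf2 alike, replicate 1 of day 6 was the higher library. For Zscan4d and Eif4a3l1 it was the lower one.

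**Figure D3:**
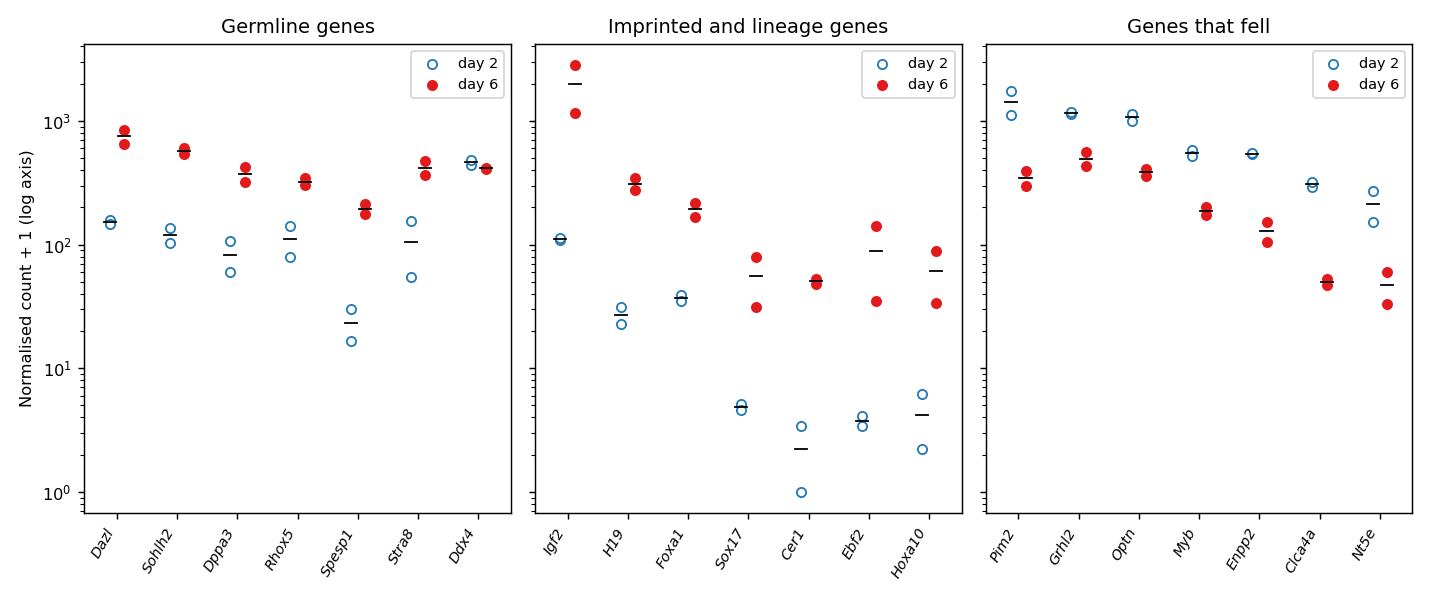
Normalised counts + 1 (log axis) per TKO library without cytokines, with open circles for day 2, filled circles for day 6 and a bar for the mean of 2 libraries, in 3 panels of genes. The days are apart for Dazl, Sohlh2, Dppa3, Rhox5 and Spesp1, Ddx4 hardly moved, the imprinted and lineage genes lie higher at day 6, and the panel at the right holds 7 of the 9 genes that fell.

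None of the 9 genes that fell is in any list. Pim2, a kinase that promotes survival, fell from 1116 and 1743 normalised counts at day 2 to 295 and 394 at day 6 (log2 fold change -2.05 ± 0.37, edgeR adjusted p = 0.0215). Grhl2, a factor that maintains epithelial genes, fell from 1139 and 1168 to 432 and 555 (-1.22 ± 0.22, edgeR adjusted p = 0.0178). Myb, a factor of proliferating progenitors, fell from 582 and 520.2 to 172 and 202 (-1.55 ± 0.28, edgeR adjusted p = 0.0178). In each of these genes the lower library of day 2 stood above the higher one of day 6. Enpp2, the enzyme autotaxin that makes lysophosphatidic acid, fell from 533 and 545 to 152 and 103 (-2.07 ± 0.38, edgeR adjusted p = 0.0249). Nt5e, the ectoenzyme CD73 that makes adenosine, fell from 152 and 272 to 32.3 and 59.3 (-2.20 ± 0.45, edgeR adjusted p = 0.0422). Clca4a, of the chloride channel accessory family, fell from 292 and 318 to 46.3 and 51.7, the largest fall (-2.63 ± 0.44, edgeR adjusted p = 0.0154). Optn, an autophagy receptor, the metalloprotease Amz1 and Ppp4r4, a subunit of phosphatase 4, also fell, with log2 fold changes of -1.47, -2.05 and -2.12.

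Signalling and housekeeping lists gave no call, where 0.422% of all genes tested rose and 0.0543% fell. At these shares counts of 0 set no list of this size apart. In the BMP, LIF and STAT3, FGF and ERK, and WNT target lists, in the cell cycle, p53, hypoxia, stress response, interferon, cholesterol and histone lists, and among DNA methylation enzymes and PRC1.6 or H3K9 repressors, 0 genes passed in either direction (edgeR). Their median log2 fold changes lay between -0.34 for p53 targets and 0.54 for hypoxia and glycolysis. Unadjusted p-values below 0.05 numbered at most 3 in any one of these lists, against 8.78% of all genes tested.

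Whether cytokines changed this course was asked with TKO aggregates that received them, which share no library with the comparison above. There 710 genes rose (4.28%) and 285 fell (1.72%) between the days, of the same 16582. Of the 70 genes that rose without cytokines, 61 also rose with them, which is 87.1% of the former and 8.59% of the latter. Of the 9 that fell, all fell with cytokines too, 3.16% of those that fell there. The median log2 fold change of the 70 was 2.74 without and 3.55 with cytokines, and the larger value was the one with cytokines in 56 of them. None of the 79 went the other way past the test. With the fold limit the count with cytokines was 434 genes, and it was 133 without replicate 1 and 289 without replicate 2 of day 2, and 306 and 250 without replicates 1 and 2 of day 6.

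**Figure D4:**
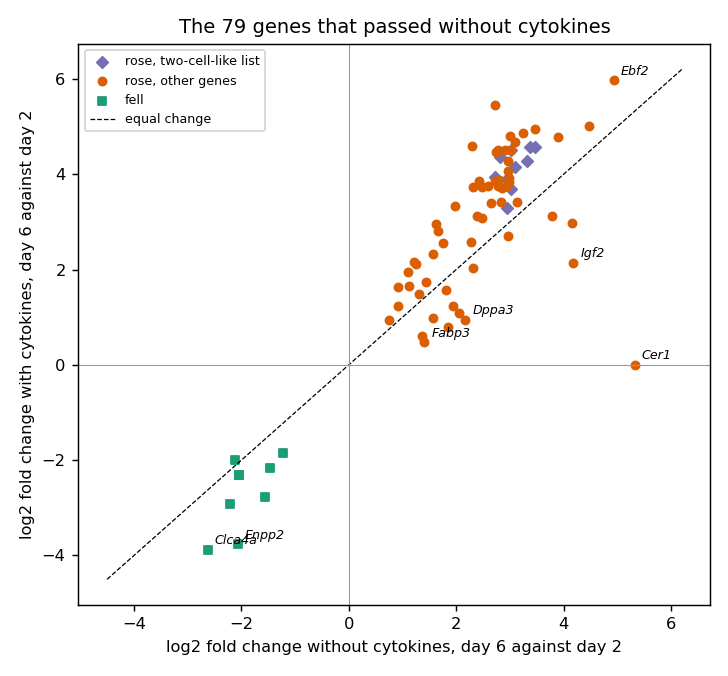
log2 fold change of day 6 against day 2 without cytokines (horizontal axis) and with cytokines (vertical axis) for the 79 genes that passed without cytokines, with a dashed line of equal change. Of the 70 that rose, 56 lie above the line. Cer1 is drawn at 0 with cytokines because it had no counts in those 4 libraries.

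The difference between both courses was then tested for every gene. No gene passed (0 of 16582, 0%, edgeR, lowest adjusted p = 0.303), 717 had an unadjusted p below 0.05, and DESeq2 called 1 beyond both limits. The larger number of calls with cytokines is therefore not shown to be a different response. Zscan4d stood at 48.7 and 128 normalised counts at day 2 and at 1730.2 and 1689.9 at day 6 with cytokines, a log2 fold change of 4.28 beside 3.32 without them. Igf2 was higher at day 2 with cytokines, at 911 and 1230, and stood at 5396 and 4064 at day 6, a log2 fold change of 2.15 that did not pass (edgeR adjusted p = 0.0954, difference of log2 fold changes 2.03 ± 1.03, also not past the test). Dppa3 stood at 197 and 137 and then at 228 and 411 with cytokines, where it did not pass (edgeR adjusted p = 0.171). Cer1 had no count in any of the 4 libraries with cytokines. The Rn45s share was 31.7% to 37.3% with cytokines and 16.2% to 20.9% without, a gap between the arms and not between the days. With Rn45s left out of the counts, a setting chosen after seeing the data, 438 genes were called with cytokines and 0 in the difference. The libraries of day 2 with cytokines also differed in T, with 882 and 62 counts.

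Wild-type aggregates without cytokines give the course that the same medium supports with TET proteins. The change over time differed between TKO and wild type in 1627 genes in the direction of higher in TKO (9.81%) and in 1406 in the other (8.48%), by a test of the difference itself (edgeR). Of the 70 genes that rose in TKO aggregates, 43 had a change above that of wild type and 3 a change below it, Cxcr4, Dcc and Lonrf3, which were named after their values were seen. This test uses the TKO libraries in which the 70 were found, so the count is a description. All 10 two-cell-like genes that rose were among the 43. Their list summed to 30.2 and 39.6 normalised counts in wild-type libraries at day 2 and to 0 and 0.453 at day 6. In TKO EpiLCs it summed to 0.992 and 16.5, so that the sum was higher at day 2 and at day 6 than in EpiLCs of the same genotype. Wild-type EpiLCs stood at 84.5 to 91.6, and wild-type cells sorted at day 6 with cytokines at 189.8 to 249.7. TKO aggregates with cytokines reached 12395 to 12449 at day 6, where 16 of the 17 tested members rose between the days.

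Among the others, Dazl was at 4.87 and 5.44 normalised counts in wild-type aggregates at day 2 and at 2.27 and 0 at day 6 (difference of log2 fold changes 3.99, edgeR adjusted p = 0.0384). Rhox5 was at 15.6 and 23.3 and then at 1.81 and 0 (5.45, edgeR adjusted p = 5.32e-05). Grhl2 fell in both genotypes, from 175 and 218 to 14.5 and 8.11 in wild type, and fell less in TKO (2.82, edgeR adjusted p = 7.03e-05). Pim2 fell in wild type from 5567 and 9656 to 76.6 and 103.1, and also fell less in TKO (4.43, edgeR adjusted p = 5.61e-05). Ebf2, by contrast, rose in both genotypes, from 38.0 and 32.6 to 1699 and 893 in wild type, and the changes were not told apart (-0.22, edgeR adjusted p = 0.955). Igf2 rose in wild type as well, from 682 and 263 to 1278 and 4314 (1.65, edgeR adjusted p = 0.296). Enpp2 did not differ past the test (-1.55, edgeR adjusted p = 0.0578).

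The largest differences lay mostly in genes that moved in wild type. Evx1os, an antisense transcript at Evx1, was at 0 in both wild-type libraries of day 2 and at 447 and 184 normalised counts at day 6, while TKO means were 23.0 and 7.74. Etv2, a factor of blood vessels, had wild-type means of 134 at day 2 and 0 at day 6, and TKO means of 15.9 and 11.9. Casr, the calcium-sensing receptor, had wild-type means of 295 and 0.453, and TKO means of 7.51 and 16.5. Among genes with a mean of at least 20 normalised counts over the 8 libraries compared, the other large differences were those of Xlr, 1700013H16Rik and Gm21761 on the side of TKO, and E130114P18Rik, Ttr, Vxn and Mlc1 on the side of wild type. Of these Ttr rests on 1 library, since it stood at 5.44 and 1331 in wild-type aggregates at day 6, and its call was lost under DESeq2 (adjusted p = 0.0700). In a fit of the compared libraries alone Ttr, E130114P18Rik and Mlc1 were not called. Counting did not use strand, so reads of Evx1os and of genes that overlap it cannot be told apart.

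**Figure D5:**
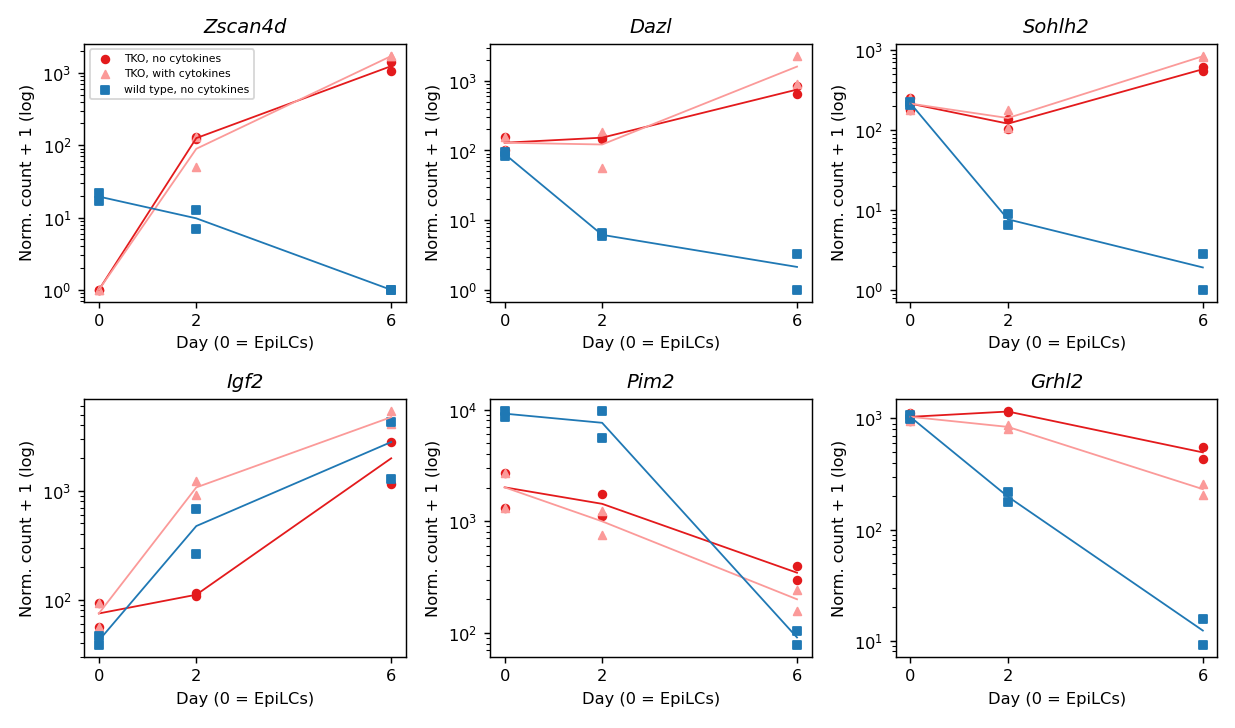
Normalised counts + 1 (log axis) of 6 genes at days 0 (EpiLCs), 2 and 6, with 1 point per library and lines through group means, for TKO aggregates without and with cytokines and wild-type aggregates without cytokines. Zscan4d, Dazl and Sohlh2 lie higher at day 6 than at day 2 in both TKO courses and lower in wild type, Igf2 lies higher at day 6 in all 3, and Pim2 and Grhl2 lie lower in all 3.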

How the data were processed

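RNA was depleted of ribosomal RNA and made into strand-marking libraries. Aggregates were taken whole, except that the study sorted wild-type cells grown with cytokines by PGCLC surface markers. The sorted libraries and those of EpiLCs also enter the model described below. The deposited values are raw fragment counts per gene: per the labels the authors trimmed reads with Trim Galore 0.5.0 and cutadapt 1.16 and aligned them to mm10 with STAR 2.7.1a, and the file's command lines show featureCounts (Subread 1.5.2) on refGene exons, without strand, multimapping fragments or fragments of several genes. 33 rows that hold these command lines were dropped, leaving 25239 genes.

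Counts of all 18 libraries were filtered by group (filterByExpr, 16582 genes), scaled by TMM and fitted as 9 group means (edgeR 4.0.16, R 4.3.3); p-values were adjusted by Benjamini and Hochberg over all genes. Standard errors were obtained from each log2 fold change and its F statistic. Normalised counts use DESeq2 1.42.0 size factors. A gene passed at an adjusted p below 0.05. The code was tested on simulated data.

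Members, comparisons, 30 gene lists and the naming rule were chosen with earlier results of these data known. Of 504 list symbols, 481 matched by symbol and 20 by synonym. Genes were named if they were among the 20 largest rises or 10 largest falls (log2 fold change beyond 2, mean of at least 20 normalised counts, no overlap), the 10 smallest p-values per direction, list members that passed or define a list, or the 5 largest differences per side (mean of at least 20), with Tet1, Tet2, Tet3 and Rn45s. Pramel6, Pramel7, Gm12794, Gm13119, Cxcr4, Dcc, Lonrf3, Gm2022, Wnt8a, Pou3f1 and Tcstv1 were named after their values were seen. Alternatives were another tool, scaling, filter, threshold, fewer libraries, a replicate block and each library left out.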

Additional observations from a re-analysis of the deposited data

Results flagged for a closer look

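Between days 2 and 6 without cytokines, 1573 genes changed differently in TKO and wild-type aggregates beyond both limits, by the test of the difference. For two-cell-like genes the difference of log2 fold changes (TKO minus wild type) was Zscan4a 6.97, Zscan4b 7.43, Zscan4c 8.25, Zscan4d 9.64 and Zscan4f 8.66, and for the deubiquitinases Usp17la 7.91, Usp17lb 7.02, Usp17lc 7.99, Usp17ld 5.91 and Usp17le 7.69. On the same scale germline genes gave Dppa3 5.23, Dazl 3.99, Spesp1 4.86 and Rhox5 5.45, and endoderm genes Sox17 4.90 and Cer1 12.25. Of the genes that fell in TKO, the values were Clca4a 7.04, Nt5e 2.11, Pim2 4.43 and Grhl2 2.82. With a mean of at least 20 normalised counts over the 8 libraries compared, which Cer1 does not reach, the largest positive differences were Xlr 10.48, Gm21761 10.40, 1700013H16Rik 9.97, Etv2 9.81 and Casr 9.74. The largest negative ones were Evx1os -12.97, E130114P18Rik -12.86, Ttr -11.80, Vxn -10.14 and Mlc1 -10.01.

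Of these 30 genes, 19 had no count in both wild-type libraries of 1 day, so their fitted sizes depend on the prior count and are no bounds. In wild-type libraries of day 6 the late germline list, with Dazl, Spesp1 and Dppa3, summed to 4.63 and 9.97 normalised counts. The Rhox cluster, with Rhox5, summed to between 2.32 and 3.17 there. The fitted sizes of these germline genes are uncertain too. The wild-type libraries of day 6 differed most between replicates, and without replicate 1 or 2 of that group 1321 and 2163 genes were called. The part of that spread in single values was not tested. No group had enough libraries for a test of outlying samples.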

How the results depend on the processing

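For day 6 against day 2 without cytokines, 56 genes were called. DESeq2 gave 97, no filter on low counts 116, a fit of the 4 libraries alone 208 and an adjusted p below 0.01 gave 24. All 56 were among the calls of the first 3 of these. Leaving out 1 library gave 1 to 28. With cytokines the 434 calls became 813 with a log2 limit of 1, 995 with no limit, 202 at an adjusted p below 0.01 and 133 to 306 with a library left out. For the difference with cytokines, 0 became 1 under DESeq2, 4 without a filter and 1 with the libraries compared alone. For the difference from wild type, 1573 became 2666 with a log2 limit of 1, 3033 with no limit and 1011 at an adjusted p below 0.01. Other settings stayed within 1.5 times; Rn45s was left out as a setting chosen after seeing the data and gave 56, 438, 0 and 1568.

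A replicate block gave 56, 409, 0 and 1544 calls. Deviations of same-numbered libraries correlated at 0.166 between days 2 and 6 of TKO without cytokines, among the highest of 36 pairs of groups (median 0.012, highest 0.182). With 2 numbers per group and no label that ties them, they were not treated as pairing. Under the block Cer1, Nt5e and Optn reached adjusted p-values of 0.0631, 0.0532 and 0.0532, and the difference of Ttr from wild type 0.0698.

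Direction turned only in named genes that did not pass. With library sizes alone the log2 fold change of Esrrb was 0.0098. With 1 library left out, values ran from -0.14 to 0.13 for Esrrb, -0.44 to 0.26 for Prdm1, -0.22 to 0.031 for Otx2, -0.064 to 0.16 for Tfap2c, -0.30 to 0.17 for Rn45s, -1.05 to 0.072 for Etv2, -0.33 to 1.18 for Xlr and -0.19 to 1.17 for Mlc1. Where no cause is evident from fewer libraries or genes, the cause was not tested. Among genes of low or moderate counts, Dux, Zfp352 and H19 had log2 fold changes of 2.48, 2.86 and 3.59 and did not pass, and Zfp352 and H19 passed under DESeq2 (adjusted p = 0.00205 and 0.0497).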
